A study of Homo sapiens with 8 samples.

Results

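The effect of luteolin on microRNA (miRNA) levels in PC-3 cells was measured by comparing the 4 arrays of cells that received luteolin with the 4 arrays of cells that did not, with gefitinib as a covariate. All 8 of the 8 arrays of the series entered this comparison. PC-3 is a human prostate cancer cell line, luteolin is a plant flavonoid found in dietary supplements, and gefitinib is an inhibitor of the EGFR tyrosine kinase. Cells were treated for 24 h with the solvent DMSO, with 60 µM luteolin, with 60 µM gefitinib, or with 60 µM of each drug together (luteolin+gefitinib), and each treatment was measured on 2 arrays. Both drugs were dissolved in DMSO, so that all 4 treatments carried the solvent. The arrays with luteolin were therefore those of luteolin and luteolin+gefitinib, and the arrays without it were those of DMSO and gefitinib. The study asked how luteolin and gefitinib, alone or together, change gene regulation in cancer cells. The labels call the arrays of a treatment biological replicates, but nothing says that they came from separate cultures, so the p-values measure only the spread between these arrays.

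A miRNA is cut from a hairpin RNA with a pair of arms. In most hairpins, 1 arm, the guide, is loaded into an Argonaute protein and kept, while the opposite arm, the passenger, is released and degraded, so that it is normally the scarcer strand. The guide finds its target mRNAs mainly through its seed, the short stretch behind its 5′ end, and it lowers their translation and stability. The last part of a name, 5p or 3p, gives the arm of the hairpin that the RNA comes from, and the array carries separate probes for the arms.

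The sequences below are the miRNAs on which the results turn, each passenger arm beside its guide arm. They are mature sequences from RefSeq (GRCh38.p14), 5′ to 3′, with the seed, bases 2 to 8, in capitals. The hairpins of miR-100, miR-29b-1, miR-182, let-7a and let-7i each gave an arm that was dimmer with luteolin and an opposite arm with an effect near 0, and the arms of a hairpin share no seed.
hsa-miR-100-3p: cAAGCUUGuaucuauagguaug
hsa-miR-100-5p: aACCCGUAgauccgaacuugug
hsa-miR-29b-1-5p: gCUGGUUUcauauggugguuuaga
hsa-miR-29b-3p: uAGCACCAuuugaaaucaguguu
hsa-miR-182-3p: uGGUUCUAgacuugccaacua
hsa-miR-182-5p: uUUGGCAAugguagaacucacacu
hsa-let-7a-3p: cUAUACAAucuacugucuuuc
hsa-let-7a-5p: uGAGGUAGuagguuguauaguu
hsa-let-7i-3p: cUGCGCAAgcuacugccuugcu
hsa-let-7i-5p: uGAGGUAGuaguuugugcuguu
The let-7a-5p and let-7i-5p guide arms share the seed GAGGUAG, whereas the seeds of their opposite arms differ from each other. Further sequences, written here because they were called, came from hairpins with only 1 detected arm.
hsa-miR-432-5p: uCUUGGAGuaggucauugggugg
hsa-miR-484: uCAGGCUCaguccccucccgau
Members of the miR-320 family are shown because they lay on the higher side together. The miR-320b and miR-320d sequences share the seed AAAGCUG and the miR-320e seed starts 1 base later. Binding of these miRNAs to each other's probes was not tested. For miR-320a no sequence is printed.
hsa-miR-320b: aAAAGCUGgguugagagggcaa
hsa-miR-320d: aAAAGCUGgguugagagga
hsa-miR-320e: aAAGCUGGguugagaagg

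Of the 1887 human miRNAs on the array, 365 were detected on all 8 arrays, 1365 were detected on none, and 480 were detected on both arrays of at least 1 treatment and were tested. The number of detected miRNAs per array ranged from 395 to 481, and it averaged 432 ± 38.4 (SD, n = 4) with luteolin and 463.5 ± 23.0 (SD, n = 4) without. An exact two-sided permutation test of the luteolin label within each gefitinib state gave p = 0.278 for this number and p = 0.778 for the 75th percentile of the signal, and 0.0556 is the smallest p that its 36 arrangements can give. The 8 arrays lay on 1 slide, with the replicate number as the row and the treatment as the column, so that slide column and treatment cannot be told apart. Of the epithelial markers, miR-200b-3p and miR-429 were detected on all 8 arrays, miR-205-5p was detected on 6 arrays, and miR-200c-3p and miR-141-3p were detected on none. The summed scaled signal of this list was 151 to 190 without luteolin and 161 to 195 with it. All muscle, liver and endothelial markers were undetected on all 8 arrays, as were 5 of the 6 blood markers and the neural miR-124-3p. The neural marker miR-9-5p was detected on all 8 arrays, at 7.58 to 14.3 without luteolin and 7.62 to 14.9 with it. In bulk RNA, fewer cells with a miRNA and less of it per cell cannot be told apart.

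With luteolin, 5 miRNAs were called lower and 1 was called higher. The passenger arms miR-29b-1-5p and miR-100-3p fell and miR-484 rose among the miRNAs detected on all 8 arrays. The passenger arm let-7a-3p was detected on 6 arrays. Neither miR-432-5p nor the passenger arm let-7i-3p passed detection on an array with luteolin (0 of 4), and both entered the test only through the arrays without it, so that they could only come out lower and their p-values are given as a description. The effect was taken from an additive model of luteolin and gefitinib fitted with limma to log2 of the scaled signal of each miRNA, with p-values adjusted by Benjamini-Hochberg over the 480 tested. In this model 6 miRNAs (1.25%) had an adjusted p below 0.05, 5 of them lower (1.04%) and 1 of them higher (0.208%), and 60 (12.5%) had an unadjusted p below 0.05. The median effect over the 480 was -0.09 on the log2 scale, and scaling by a percentile over all miRNAs moved it to 0.02, so that effects near this size have no settled direction. The number called depended on the model and on single arrays. Averaging the luteolin effect in a fit of the 4 treatments called 31 (6.46%), the 6 among them. Every array detected 11 of the 31. Both fits gave the same effects and differ only in their errors, and the difference from 6 was not tested further. Leaving out 1 array gave 3 calls without DMSO replicate 2, gefitinib replicate 1 or luteolin+gefitinib replicate 1, and 11 without luteolin replicate 1. The gefitinib arrays differed from each other by about the scanner software's own error (mean squared difference over squared error 1.03, against 2.45 to 9.93 for the other treatments) and may not be independent. Counted as 1 sample, an alternative added after seeing the data, they left 3 calls, which were miR-100-3p (adjusted p = 0.0142), let-7a-3p (0.0142) and miR-432-5p (0.00557). Of the 29 alternative settings and samples, miR-100-3p was called in 25, miR-29b-1-5p in 18 and miR-484 in 11. Of the 27 that gave a value for the miRNAs not detected on all arrays, let-7a-3p and miR-432-5p were each called in 22 and let-7i-3p in 11. None of the 6 was called with normexp and quantile normalization or on log2 of signal plus 16. The plot of effect against signal shows where the called miRNAs lie.

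**Figure D1:**
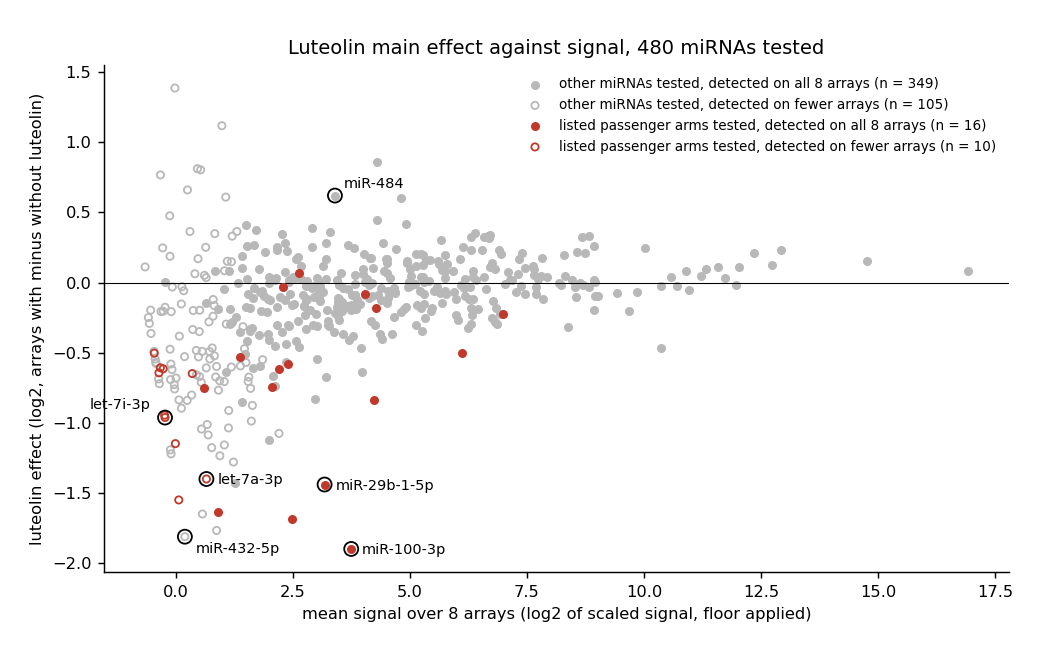
Luteolin main effect (log2, with luteolin minus without) of each tested miRNA against its mean log2 scaled signal over the 8 arrays; points are miRNAs and the called ones are named. The called miRNAs lie among the dimmer ones, and the bright miRNAs at the right sit near 0.

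The largest change that was measured on all 8 arrays was that of miR-100-3p, the passenger arm of the hairpin that gives miR-100-5p, a miRNA known to repress the kinase mTOR. The scaled signal of miR-100-3p was 37.8 and 48.2 with DMSO, 19.7 and 12.5 with gefitinib, 15.2 and 10.0 with luteolin and 4.06 and 3.76 with luteolin+gefitinib. Within each gefitinib state both luteolin arrays were below both arrays without it, although luteolin replicate 1 exceeded gefitinib replicate 2. In the additive model miR-100-3p fell by 1.90 on the log2 scale, 3.73-fold (SE 0.209, 95% interval -2.39 to -1.40, adjusted p = 0.00661). The call held with each of the 8 arrays left out. It was lost with normexp and quantile normalization (adjusted p = 0.138), on log2 of signal plus 16 (0.0792), with no filter on dim miRNAs (0.106) and without gefitinib as a covariate (0.527). The guide arm miR-100-5p had signals of 2983 and 4054 with DMSO, 3176 and 3373 with gefitinib, 3120 and 4217 with luteolin and 3255 and 3317 with luteolin+gefitinib. Its luteolin and other arrays overlapped, and its effect was 0.03 (adjusted p = 0.964).

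On the opposite strand of miR-29b-3p, the passenger arm miR-29b-1-5p had scaled signals of 19.9 and 25.8 with DMSO, 10.7 and 8.94 with gefitinib, 5.93 and 8.18 with luteolin and 3.90 and 4.79 with luteolin+gefitinib. All 4 arrays with luteolin were below the 4 without it, as was the case for 12 of the 480 miRNAs (2.50%). It fell by 1.44 on the log2 scale, 2.71-fold (SE 0.192, 95% interval -1.89 to -0.99, adjusted p = 0.0169). The adjusted p rose above 0.05 without DMSO replicate 1 (0.0628), DMSO replicate 2 (0.0511), gefitinib replicate 1 (0.0967) or luteolin+gefitinib replicate 1 (0.0964), and with the gefitinib arrays as 1 sample (0.0578). It did so too with quantile normalization (0.107), a percentile over all miRNAs (0.0518), normexp and quantile normalization (0.138), log2 of signal plus 16 (0.0962), no filter (0.193) and no gefitinib covariate (0.378). The guide arm miR-29b-3p, which is known to repress collagen and DNA methyltransferase genes, had signals of 1072 to 1769 over the 8 arrays and an effect of -0.03 (adjusted p = 0.964). A second hairpin also yields miR-29b-3p, so its level is not that of 1 hairpin alone.

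The let-7 miRNAs repress growth genes such as RAS and HMGA2. For let-7a-3p, the arm opposite to let-7a-5p, the scaled signals were 4.26 and 4.28 with DMSO, 1.62 and 1.43 with gefitinib, 1.75 and 1.34 with luteolin and not detected with luteolin+gefitinib. It was detected on 4 of 4 arrays without luteolin and on 2 of 4 with it (adjusted p = 0.00270). The call held with each array left out, but it was lost with a floor of 1 (0.0850), which bears on the undetected values, with quantile normalization (0.107), with normexp and quantile normalization (0.158), on log2 of signal plus 16 (0.148) and without the gefitinib covariate (0.592). In the presence of gefitinib it was at least 2.21-fold lower with luteolin, a bound set by the lowest signal of any detected miRNA on each array. For let-7i-3p the signals were 0.951 and 1.08 with DMSO, 1.34 and 1.45 with gefitinib and not detected with luteolin or luteolin+gefitinib. It was at least 1.83-fold lower with luteolin by the total gene signal (adjusted p = 0.0170), but the effect was -0.56 with the mean processed signal, -0.64 in the deposited series table and -0.26 with a floor of 1. No scaling (0.133), control-probe scaling (0.104), spike-in scaling (0.313), quantile normalization (0.392), normexp and quantile normalization (0.563), a floor of 1 (0.374), log2 of signal plus 16 (0.278), no filter (0.106), an intensity trend (0.203), the absence of the covariate (0.0518) and the gefitinib arrays as 1 sample (0.103) each ended the call. It was also lost without DMSO replicate 2 (0.0659), gefitinib replicate 1 (0.117) or 2 (0.0963), or luteolin+gefitinib replicate 1 (0.0982) or 2 (0.0816). The guide arms let-7a-5p and let-7i-5p had effects of 0.11 and -0.03 (adjusted p = 0.885 and 0.964). Undetected miRNAs were all set to the same floor, which has no spread and makes the error of such miRNAs too small.

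A member of the imprinted miRNA cluster at 14q32, miR-432-5p, had scaled signals of 1.92 and 2.36 with DMSO, 2.18 and 2.11 with gefitinib and not detected with luteolin or luteolin+gefitinib. It was dim on the arrays without luteolin, and none of the 4 luteolin arrays detected it. It was at least 3.30-fold lower with luteolin by the total gene signal (adjusted p = 0.000347). The effect was smaller by other summaries of the same spots, -0.65 with the mean processed signal and -0.35 in the deposited series table. The call was lost with both (adjusted p = 0.299 and 0.511) and with quantile normalization (0.107), normexp and quantile normalization (0.9004) and log2 of signal plus 16 (0.0962). The opposite arm, miR-432-3p, was detected on 0 arrays. Of the 43 listed 14q32 miRNAs on the array, 34 were detected on none, and the 4 detected on all 8 arrays had a median effect of -0.31, against -0.04 for the 365. None of these 4 was called. The lowest of them was miR-431-3p at -0.83 (adjusted p = 0.213). Over the 8 tested 14q32 miRNAs the median was -0.41, and it depended on the processing. It was -0.17 with quantile normalization, -0.06 on log2 of signal plus 16 and -0.007 with normexp and quantile normalization.

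The scaled signal of miR-484, a miRNA known to be made without the Drosha and DGCR8 complex that cuts most hairpins, was 9.44 and 10.2 with DMSO, 7.31 and 7.40 with gefitinib, 14.03 and 16.4 with luteolin and 11.4 and 11.0 with luteolin+gefitinib. All 4 luteolin arrays were above the 4 others, which held for 8 of the 480 miRNAs (1.67%). It rose by 0.62 on the log2 scale, 1.54-fold (SE 0.104, 95% interval 0.37 to 0.87, adjusted p = 0.0470). This was the call nearest the threshold, and leaving out any array but luteolin replicate 1 ended it, with adjusted p-values from 0.0901 without luteolin replicate 2 to 0.246 without gefitinib replicate 1. It was also lost with the gefitinib arrays as 1 sample (0.232), no scaling (0.539), spike-in scaling (0.481), median scaling (0.117), a percentile over all miRNAs (0.0604), quantile normalization (0.107), normexp and quantile normalization (0.138), log2 of signal plus 16 (0.0962), no filter (0.0686), an intensity trend (0.0595) and no gefitinib covariate (0.527). The next candidates on the higher side did not pass the test. For miR-3152-3p the signals were 9.75 and 14.3 with DMSO, 17.6 and 18.0 with gefitinib, 17.3 and 26.4 with luteolin and 27.7 and 37.3 with luteolin+gefitinib, an effect of 0.86 (adjusted p = 0.136). For miR-1268a the effect was 0.42 (adjusted p = 0.369). The arrays with and without luteolin overlapped for miR-3152-3p but not for miR-1268a, whose signals were 27.2 and 29.5 with DMSO, 23.4 and 24.6 with gefitinib, 33.5 and 30.6 with luteolin and 34.1 and 42.1 with luteolin+gefitinib.

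Just outside the threshold on the lower side was miR-182-3p, the passenger arm of miR-182, which belongs to a cluster with miR-183 and miR-96 that is abundant in prostate cancer. Its scaled signal was 7.37 and 8.32 with DMSO, 12.9 and 12.6 with gefitinib, 4.64 and 3.31 with luteolin and 2.32 and 2.62 with luteolin+gefitinib. All 4 arrays with luteolin were below the 4 without it, and the effect was -1.69 (SE 0.295, adjusted p = 0.0507). The guide arm miR-182-5p had an effect of -0.07 (adjusted p = 0.932). The plot of signals by array sets the called miRNAs beside 3 guide arms.

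**Figure D2:**
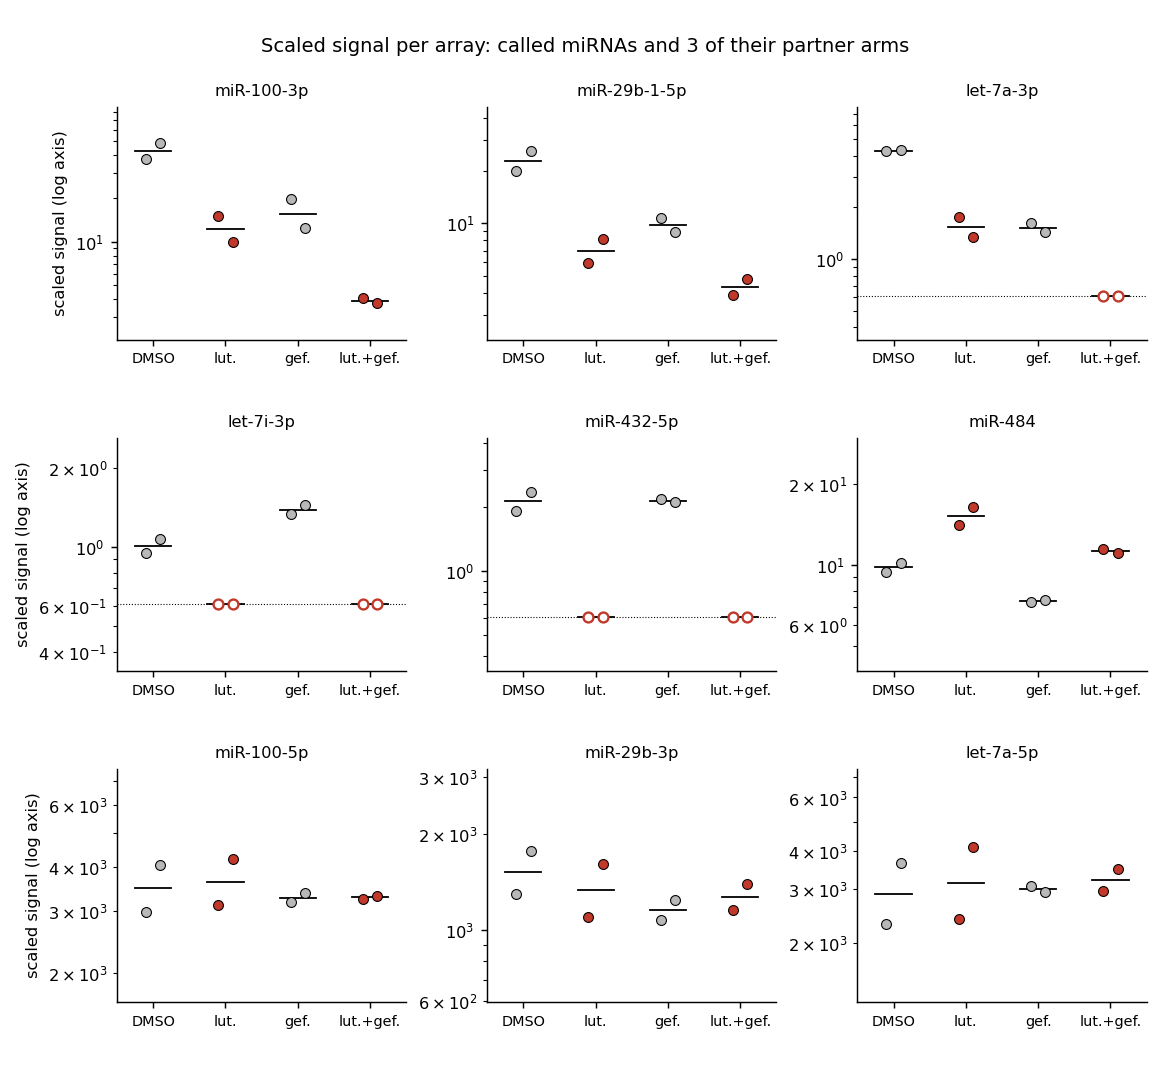
Scaled signal (log axis) on each of the 2 arrays per treatment for the 6 called miRNAs and 3 guide arms; red points received luteolin, grey points did not, bars are group means of log2 signal, and open points on the dotted line were not detected. The called passenger arms are lower with luteolin in each gefitinib state, while miR-100-5p, miR-29b-3p and let-7a-5p overlap.

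The passenger arms of common hairpins lay on the lower side together. Of 49 such arms listed by name, 21 were detected on no array, 26 were tested and 16 were detected on all 8 arrays. These 16 are described here, since an arm detected in 1 condition only had to differ. The list was made with earlier results of these data known, so the counts below are a description and not a test. Of the 16, 15 had a negative effect, with a median of -0.60 and a range from -1.90 to 0.07, whereas 217 of the 365 miRNAs detected on all 8 arrays were negative, with a median of -0.04. Only miR-100-3p and miR-29b-1-5p passed the adjusted threshold. At an unadjusted p below 0.05, 11 of the 16 were lower, against 22 of the 365 (6.03%), and 0 of the 16 were higher, against 11 of the 365 (3.01%). The count of 11 stayed at 11 with each array left out. It was 7 with quantile normalization and 6 with normexp and quantile normalization, and the median of the 16 ranged from -0.69 with no scaling to -0.05 with normexp and quantile normalization. In the fit of the 4 treatments, 8 of the 16 had an adjusted p below 0.05 and were lower, out of 9 such miRNAs among the 365 (2.47%). For 10 of the 16 both luteolin arrays were below both others in each gefitinib state, against 20 of the 365 (5.48%), and the opposite order occurred for 18 of the 365 (4.93%) and for none of the 16.

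The following members of this list were picked after their values were seen, and none passed the adjusted threshold. For miR-23a-5p the signals were 4.11 and 3.27 with DMSO, 3.23 and 2.61 with gefitinib, 1.82 and 0.642 with luteolin and 0.925 and 1.12 with luteolin+gefitinib (effect -1.64, adjusted p = 0.0839). For miR-183-3p they were 19.1 and 23.4 with DMSO, 28.9 and 30.4 with gefitinib, 14.4 and 16.2 with luteolin and 12.7 and 13.0 with luteolin+gefitinib (effect -0.84, adjusted p = 0.117). Both had all 4 luteolin arrays below the others. The arm miR-30e-3p, opposite to a guide of the miR-30 family, had signals of 5.30 and 6.52 with DMSO, 4.90 and 4.88 with gefitinib, 3.90 and 4.91 with luteolin and 2.32 and 2.35 with luteolin+gefitinib (effect -0.75, adjusted p = 0.136). The effect of miR-16-2-3p was -0.58 (adjusted p = 0.105) and that of miR-21-3p, opposite to the oncogenic miR-21-5p, was -0.51 (adjusted p = 0.259). The exception among the 16 was miR-424-3p, at 0.07 (adjusted p = 0.964).

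Hairpins whose arms were both detected on all 8 arrays numbered 32, and in 13 of them the dimmer arm was on the passenger list. In each pair, the arm with the higher mean signal was called the brighter arm, although the signal also depends on the probe. The dimmer arms had a median effect of -0.26 and the brighter arms -0.08, and the dimmer arm was the lower of the pair in 22 of 32. At an unadjusted p below 0.05, 12 of 32 dimmer arms and 0 of 32 brighter arms were lower, and 0 of either were higher. Of the 12, 10 were among the 13 listed passenger arms and 2 among the 19 dimmer arms not listed. The listed arms had a median of -0.75, and the arms not listed -0.09, against -0.03 and -0.11 for their brighter arms. The lower values were thus mostly those of listed arms, and the list was made with earlier results known. Over all 32 pairs the medians were -0.06 and -0.03 with quantile normalization, -0.05 and -0.05 on log2 of signal plus 16, and -0.01 and -0.02 with normexp and quantile normalization, where the order of the medians was turned.

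A test of the dimmer arm over the brighter arm within each array, which does not depend on a scaling factor per array, was added after seeing the data. With luteolin this ratio fell in 9 of the 32 pairs (28.1%) and rose in 0 at an adjusted p below 0.05 over all 32. All 9 had a dimmer arm on the passenger list, and 0 of the 19 other pairs were called, with a lowest adjusted p of 0.0640. Because that list was made with earlier results of these data known, the split by list is a description only. The 9 pairs were those of miR-29b-1, miR-100, miR-182, miR-30e, miR-20a, miR-23a, miR-183, miR-16-2 and miR-22. The ratio fell by 1.93 on the log2 scale for miR-100 (SE 0.26, adjusted p = 0.00153), by 1.41 for miR-29b-1 (SE 0.14, adjusted p = 0.000389) and by 1.62 for miR-182 (SE 0.26, adjusted p = 0.00328). The smallest of the 9 changes was that of miR-16-2, whose ratio fell by 0.51 (adjusted p = 0.0406). Over all 32 pairs the median change was -0.12, with -0.69 for the 13 listed pairs and -0.01 for the 19 others. The number called was 3 with the gefitinib arrays as 1 sample, 3 without gefitinib replicate 1, gefitinib replicate 2 or luteolin+gefitinib replicate 2, 5 without luteolin+gefitinib replicate 1, 1 with normexp and quantile normalization and 0 on log2 of signal plus 16. The plot of both arms of each pair shows that the larger effects were those of dimmer arms.

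**Figure D3:**
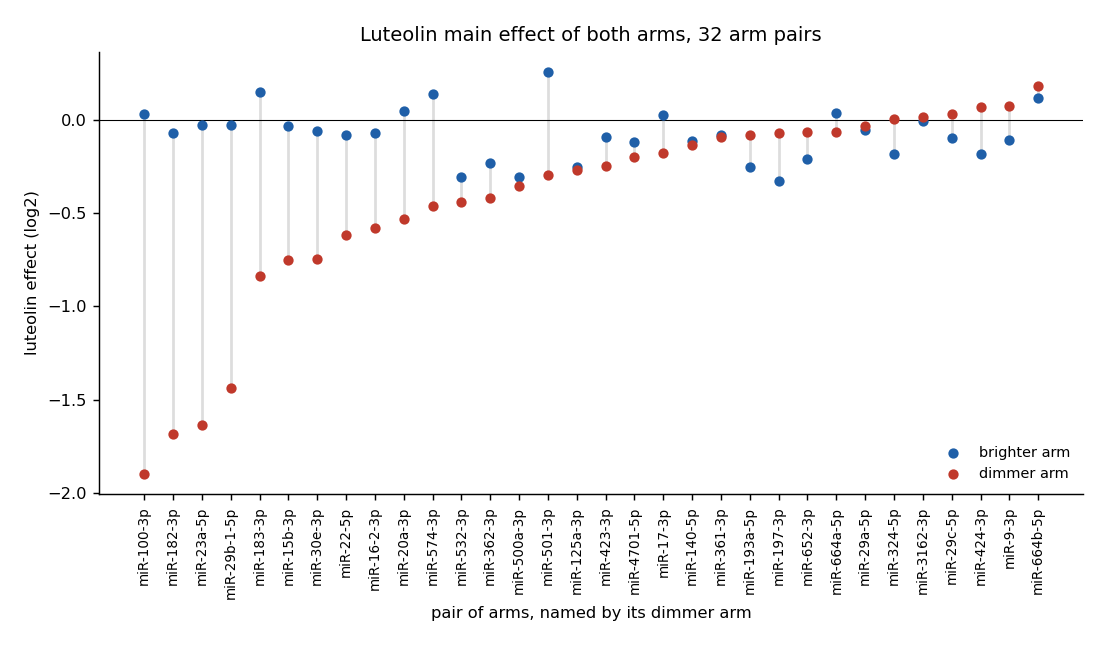
Luteolin main effect (log2) of the brighter arm (blue) and the dimmer arm (red) of each of 32 hairpins with both arms detected on all 8 arrays, ordered by the dimmer arm. The dimmer arms reach -1.90, and none of the brighter arms was lower at an unadjusted p below 0.05.

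The signal level moved with the effect as well. Across the 365 miRNAs, mean log2 signal and effect had r = 0.29 and rho = 0.32, as a description, since all points come from the same 8 arrays. The 365 miRNAs were split by signal into 4 groups of nearly equal size. Among miRNAs that were neither on the passenger list nor a dimmer arm, 3 of 69 in the dimmest group (signal 0.853 to 6.39) were lower at an unadjusted p below 0.05, as were 3 of 82, 3 of 88 and 0 of 90 in the brighter groups. Among listed passenger arms the counts were 7 of 9, 3 of 4, 1 of 2 and 0 of 1. Among dimmer arms of hairpins with both arms tested, listed or not, they were 8 of 23, 4 of 8 and 0 of 2, with none in the brightest group. The median effect in the dimmest group was -0.62 for the listed passenger arms, -0.25 for the dimmer arms and -0.13 for the miRNAs of neither kind. The part of signal level in the lower values of these arms was not tested further. GC content, known for 303 miRNAs, had r = 0.14 with the effect, and length had r = -0.10.

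Most guide arms of the abundant families had effects near the median of all miRNAs, and miR-503-5p, for which signals are given with the gefitinib states, did not. None of the 8 let-7 guide arms, the 11 of the miR-17-92 and paralogous clusters, the 7 of the miR-15/16 family or the 5 of the miR-30 family was called, where 1.25% of the 480 were. In the fit of the 4 treatments miR-503-5p was called lower (adjusted p = 0.00308). The let-7 guides, which share the seed GAGGUAG, had a median effect of 0.09, with 6 of 8 positive and let-7c highest at 0.26 (adjusted p = 0.589). The growth-promoting miR-17-92 group had a median of 0.03, with -0.21 without gefitinib (10 of 11 negative) and 0.14 with it (1 of 11 negative), against -0.09 and -0.02 for the 365. The growth-restraining miR-15/16 family had a median of -0.07. The miR-29, miR-30, miR-23/24/27 and miR-181 guides had medians of -0.05, -0.03, -0.06 and 0.08. The let-7 median ranged from 0.0013 with no scaling to 0.20 with a percentile over all miRNAs. The medians of the other families named here are no larger than the shift that the scaling makes, and they have no settled direction. Of the miRNAs linked to p53, which PC-3 cells lack, 4 were tested, all with a negative effect, as had 309 of the 480, and none called. Their median of -0.21 was 0.01 with the mean processed signal and 0.02 with normexp and quantile normalization, so that it has no settled direction. They were miR-34a-5p at -0.01, miR-194-5p at -0.10, miR-192-5p at -0.33 and miR-215, detected on only 4 arrays, at -0.80 (adjusted p = 0.990, 0.946, 0.797 and 0.755). Among those that target EGFR, miR-7-5p had an effect of 0.22 and miR-146a-5p of -0.35 (adjusted p = 0.787 and 0.369). The miRNAs that the study singled out, miR-630 and miR-5703, had main effects of 0.03 and 0.13 (adjusted p = 0.970 and 0.888). These average opposite signs. The effect was 0.37 without gefitinib and -0.31 with it for miR-630, and 0.38 and -0.12 for miR-5703, none of them called, and the difference between the states was not called for either (adjusted p = 0.919 and 0.986).

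The miR-320 family lay on the other side. All 5 members had a positive effect, from 0.23 for miR-320c to 0.35 for miR-320a, with a median of 0.33 that stayed positive under each scaling and background setting (0.22 to 0.44), and 3 of 5 had an unadjusted p below 0.05, against 11 of the 365 (3.01%), while none passed the adjusted threshold. The scaled signal of miR-320a was 67.3 and 75.8 with DMSO, 72.7 and 81.5 with gefitinib, 94.7 and 110.4 with luteolin and 85.9 and 89.9 with luteolin+gefitinib (adjusted p = 0.369). The median was 0.42 without gefitinib and 0.21 with it. Like miR-484, miR-320 is known to bypass Drosha. The sequences are near-identical, and the 5 values are not independent. The plot of effects by list shows this family opposite the passenger arms.

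**Figure D4:**
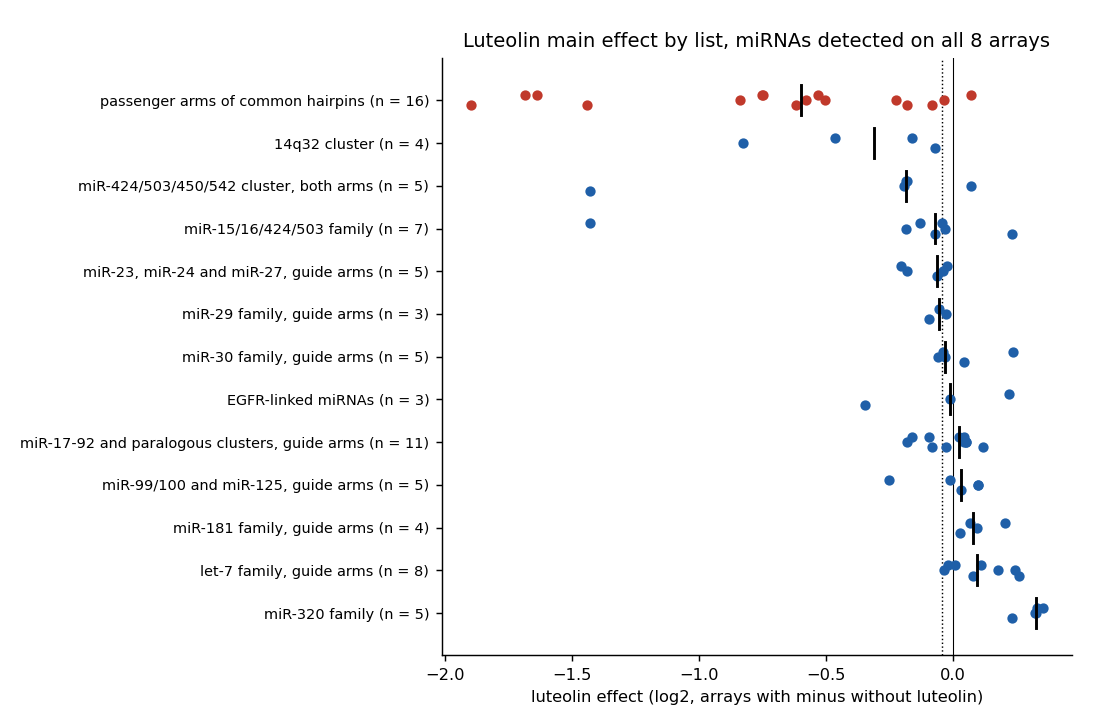
Luteolin main effect (log2) of the members of each list detected on all 8 arrays; each point is a miRNA, the bar is the list's median and the dotted line is the median of all 365 such miRNAs. The passenger arms centre on -0.60, the miR-320 family on 0.33 and the guide arms near 0.

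Because the main effect averages over both gefitinib states, the effect was also taken in each, from a limma fit of the 4 treatments. Without gefitinib 10 miRNAs were called (2.08%), and with gefitinib 22 were called (4.58%). Both counts include miRNAs that some arrays did not detect and that were set to the floor there. Both were smaller when detection on all 8 arrays was required. The contrasts without and with gefitinib share no array. Only 2 miRNAs, let-7a-3p and miR-432-5p, were called in both. Both were undetected on the luteolin+gefitinib arrays, and miR-432-5p on the luteolin arrays too, so that these calls rest on the floor and say little of likeness between the states. For miR-100-3p the effect was -1.79 without gefitinib (adjusted p = 0.0566) and -2.00 with it (adjusted p = 0.0215). For miR-182-3p it was -2.37 with gefitinib (adjusted p = 0.00305) and smaller without it (adjusted p = 0.0939), and the difference had an adjusted p of 0.0814. The effects of the 365 miRNAs in the gefitinib states had r = 0.37 and rho = 0.27, and 211 of 365 had the same sign. The count of miRNAs called without gefitinib fell to 6 without DMSO replicate 2 and reached 18 without luteolin replicate 2, which also lowered r to 0.18. With gefitinib it was 13 with the gefitinib arrays as 1 sample, 11 without gefitinib replicate 1, 13 without gefitinib replicate 2, 14 without luteolin+gefitinib replicate 2 and 33 without either luteolin array.

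Most of the listed passenger arms were negative in both states. Of the 16, 16 were negative without gefitinib, 13 with it and 13 in both, against 235, 195 and 138 of the 365. Their medians were -0.46 and -0.50, against -0.09 and -0.02. The ratio of the dimmer to the brighter arm fell in 3 pairs without gefitinib and in 6 with it, and the test of the difference called 0 of 32. The plot of the effects in both states places these arms in the lower left.

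**Figure D5:**
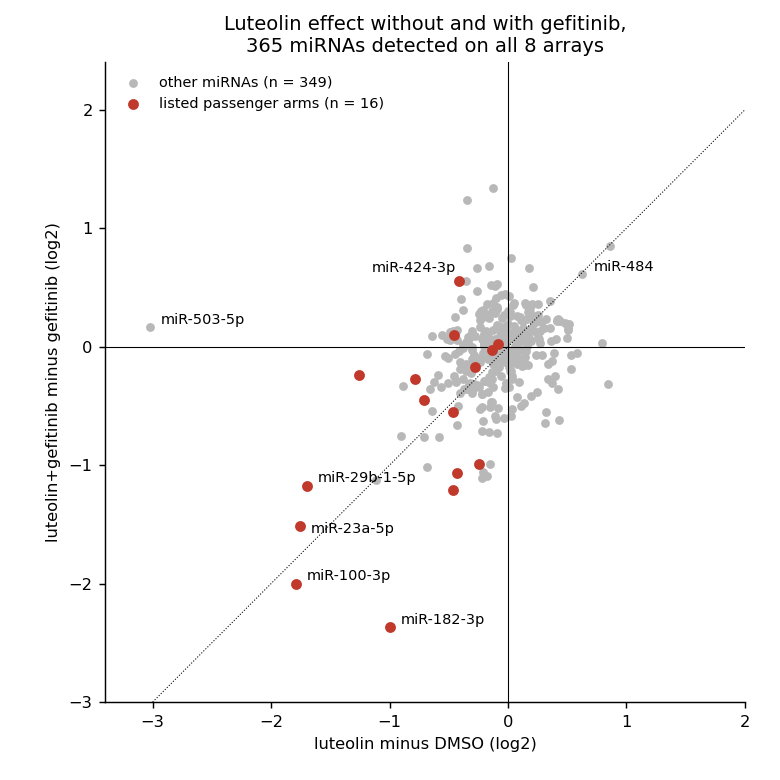
Luteolin effect (log2) without gefitinib (luteolin minus DMSO, horizontal axis) against the effect with it (luteolin+gefitinib minus gefitinib, vertical axis) for the 365 miRNAs detected on all 8 arrays. Listed passenger arms lie mostly at the lower left, with 13 of 16 negative in both states, and miR-503-5p lies far to the left near 0 on the vertical axis.

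The luteolin effect was compared between the states by the interaction contrast. Of the miRNAs it called, 3 were detected on all 8 arrays, and the others had undetected arrays, which were set to the floor. With detection on all 8 arrays required, 2 were called. Over the 480 miRNAs tested, the number called was 16 (3.33%). This count was 4 with the gefitinib arrays as 1 sample, and it ranged from 3 without gefitinib replicate 2 or luteolin+gefitinib replicate 2 to 24 without luteolin replicate 2. A listed case was miR-503-5p, a member of the miR-15/16 family that restrains the cell cycle. Its scaled signal was 9.78 and 10.8 with DMSO, 1.52 and 1.51 with gefitinib, 1.11 and 1.45 with luteolin and 1.65 and 1.74 with luteolin+gefitinib. It was high in DMSO alone and low with every drug treatment, an effect of -3.02 without gefitinib and 0.16 with it (adjusted p of the difference = 0.00319). Its main effect of -1.43 (adjusted p = 0.369) therefore averages unlike values. The other members of the miR-15/16 family had main effects between -0.19 and 0.23.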

How the data were processed

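Total RNA was labelled with Cy3 and hybridised to 1-colour Agilent human miRNA arrays, and the authors scanned the arrays and deposited the Feature Extraction output (version 10.7.3.1, per the file headers), whose values are background-subtracted intensity values on a linear scale. The total gene signal of each miRNA, which the scanner software sums over its 30 spots, was used, and 0 of these spots were saturated. The deposited series table held the same processed intensity per spot, within 0.6%, and its mean over all spots of a miRNA served as an alternative. The mean processed signal, a further alternative, left out spots flagged as outliers.

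Total gene signals were divided by their 75th percentile on each array, taken over the 365 miRNAs that every array detected. Scaled values under 0.609 were set to 0.609 before log2 was taken. This floor is the middle value, among the 8 arrays, of the dimmest detected miRNA. A miRNA was tested if it was detected on both arrays of at least 1 treatment. An additive model of luteolin and gefitinib (5 residual degrees of freedom) and a model of the 4 treatments (4 residual degrees of freedom) were fitted with lmFit and eBayes in limma 3.58.1 (R 4.3.3), two-sided, with Benjamini-Hochberg adjustment over the 480 miRNAs and a threshold of 0.05. The additive model was also run on simulated data, which are not used as support here. The precision is limited by the number of arrays, 2 per treatment.

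The named miRNAs were the called ones, by detection and size of change, filled to 3 per direction by the smallest p among miRNAs detected on all arrays, with the opposite arm of each, miR-630, miR-5703 and up to 4 members of each list. Members and lists were chosen with earlier results of these data known. Of the names on the lists, 7 had no match on the array. RefSeq gave a mature sequence for 395 of the 480 miRNAs. The arm ratio is the difference of log2 signals of the arms on the same array, fitted likewise. Alternatives changed the scaling, background correction, spot summary, floor, filter, model and samples.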

Additional observations from a re-analysis of the deposited data

Results flagged for a closer look

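Of 139 sets of 4 arrays screened for a single array far from the others, 4 were noted, and chance marks about 1 in 20 sets. For miR-182-5p the signal of luteolin replicate 2 was 77.7, while the other arrays with luteolin were at 53.04 to 56.4. DMSO replicate 2 stood above the other arrays without luteolin for miR-27a-3p (1123 against 809 to 826), miR-27b-3p (108 against 76.6 to 78.3) and miR-125a-5p (144 against 109 to 110). The cause was not tested.

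The luteolin effect differed between the gefitinib states for 2 of the named miRNAs by the limma contrast of the difference. For miR-503-5p the effect was 3.18 higher on the log2 scale with gefitinib than without (adjusted p = 0.00319), from -3.02 to 0.16. For let-7e-3p, the passenger arm of a let-7 hairpin, the difference was 1.89 (adjusted p = 0.0111). It was detected in DMSO only and entered the test only through those arrays. The fitted effect of -1.89 without gefitinib and the difference therefore depend on the floor, and the p-value of let-7e-3p is given as a description. With gefitinib all 4 arrays were at the floor.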

How the results depend on the processing

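The 6 calls of the main effect became 1 with quantile normalization, 12 with the mean processed signal, 0 with normexp and quantile normalization, 0 on log2 of signal plus 16, 2 with no filter, 31 with the average of the 4-treatment fit, 1 without the gefitinib covariate, 16 with array weights and 1 by the methods' t-test after Benjamini-Hochberg adjustment. Leaving out 1 array gave 3 to 11. The 10 calls without gefitinib became 3 with quantile normalization, 5 with spike-in scaling, 6 with the series table, 1 with normexp and quantile normalization, 1 on log2 of signal plus 16, 5 with no filter, 2 with detection on all 8 arrays, 2 with most spots well above background and 0 with only the 2 groups compared, and ranged from 6 to 18 with 1 array left out. The 22 calls with gefitinib became 11, 10, 10, 13 and 8 with quantile normalization, the mean processed signal, the series table, normexp and quantile normalization and log2 of signal plus 16. They became 13 with no filter, 7 with detection on all 8 arrays, 10 with detection on at least 4, 6 with most spots well above background and 41 with only the 2 groups compared, and ranged from 11 to 33 with 1 array left out. The 16 calls of the difference became 5 with no scaling, 7 with quantile normalization, 3 with spike-in scaling, 4 with the mean processed signal, 2 with the series table, 6 with normexp and quantile normalization, 9 with a floor of 1, 3 on log2 of signal plus 16, 2 with detection on all 8 arrays, 1 with detection on at least 4 and 2 with most spots well above background, and ranged from 3 to 24 with 1 array left out. The correlation of the effects in the gefitinib states was 0.21 with quantile normalization and 0.18 to 0.37 with 1 array left out. The 11 of 16 passenger arms lower at an unadjusted p below 0.05 became 7 with quantile normalization, 6 with normexp and quantile normalization and 6 of the 9 that had most spots well above background, and stayed at 11 with each array left out. The 9 arm ratios became 1 with normexp and quantile normalization and 0 on log2 of signal plus 16, and ranged from 3 to 9 with 1 array left out. The cause of these changes was not tested.

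With the replicate number as a block (replicate block), 7 miRNAs were called for the main effect, 9 without gefitinib, 24 with gefitinib and 12 for the difference, 11 passenger arms were lower and 11 arm ratios were called. The labels name no shared culture, day or batch for a number, which is however the row of the slide. Differences between replicates correlated at 0.91, 0.41 and 0.46 among DMSO, luteolin and luteolin+gefitinib and at -0.13, -0.09 and 0.07 with gefitinib, so a pairing was not shown for all treatments and the block was kept as an alternative. With the gefitinib arrays counted as 1 sample, chosen after seeing the data because they differed by about the scanner's error, 3 miRNAs were called for the main effect, 8 without gefitinib, 13 with gefitinib and 4 for the difference, 11 passenger arms were lower and 3 arm ratios were called.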

Other observations

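Of the 16 miRNAs whose luteolin effect differed between the gefitinib states, 3 were detected on all 8 arrays, and those besides miR-503-5p were picked here after their values were seen. The scaled signal of miR-3125 was 19.3 and 17.6 with DMSO, 14.5 and 16.1 with gefitinib, 15.4 and 13.6 with luteolin and 36.3 and 35.8 with luteolin+gefitinib. Its luteolin effect was -0.35 without gefitinib and 1.24 with it (adjusted p of the difference = 0.0167, limma). The scaled signal of miR-5194 was 26.0 and 22.9 with DMSO, 20.2 and 21.8 with gefitinib, 25.2 and 19.8 with luteolin and 51.8 and 54.3 with luteolin+gefitinib. Its effect was -0.13 without gefitinib and 1.34 with it (adjusted p of the difference = 0.0361, limma). In both, the higher values with luteolin were those of luteolin+gefitinib against gefitinib.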
